A study of Mus musculus with 8 samples.

Results

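SOCS proteins and the other inducible inhibitors of cytokine and Toll-like receptor signalling were followed in activated microglia through 9 genes of the 31406 in the deposited table, matched by gene symbol from a list drawn up with earlier results of these data known: Socs1, Socs2, Socs3, Cish, Nfkbia, Tnfaip3, Irak3, Dusp1 and Zfp36. Transcripts were sequenced from cells of wild-type mice labelled as microglia, the brain's own immune cells, grown as primary cultures for 15 days. All cells were activated for 48 h with lipopolysaccharide (LPS), a bacterial ligand of Toll-like receptor 4, and interferon-γ, which the reagent list of the study gives as human. Adenosine receptor ligands followed at 24, 32 and 40 h. The A2A antagonist group (4 libraries) received SCH58261, which blocks the adenosine A2A receptor, and the dual group (4 libraries) received SCH58261 together with the A3 receptor agonist 2-Cl-IB-MECA at 200 nM. Both groups therefore carried LPS, interferon-γ and SCH58261, and the comparison between them addressed what the A3 agonist adds. The grouping rests on the sample titles, because the labels contradict themselves: their treatment field places 2-Cl-IB-MECA in the first group and not in the dual group. Nothing in the labels says that the 4 libraries of a group came from separate animals or cultures, so p-values measure the spread between these libraries, which may be technical.

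These inhibitors close negative feedback loops. Interferon-γ and interleukins of the IL-6 and IL-10 families signal through Janus kinases (JAKs) to STAT factors, which switch on SOCS genes whose products then block the receptor or the kinase. LPS signals through MyD88 and IRAK kinases to NF-κB and the MAP kinases, and NF-κB induces IκBα and A20, which end its own activity, while the phosphatase DUSP1 and the mRNA-decay factor tristetraprolin (Zfp36) limit p38 signalling and the life of cytokine mRNAs. In microglia and macrophages such loops bound the length and height of an inflammatory response.

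The libraries held 32630602 to 45878639 counts over 26155 to 26809 detected genes, and 18756 genes passed the low-count filter, all 9 inhibitors among them. Of the microglial markers, P2ry12 (0.715 FPKM, mean of 8 libraries) and Tmem119 (3.18 FPKM) were low, while Csf1r (46.0 FPKM) and C1qa (419.6 FPKM) were abundant. Astrocyte markers were also abundant, Gfap at 389.8 FPKM, and so was the collagen mRNA Col3a1 at 77.6 FPKM, which goes against RNA from microglia alone. In such bulk RNA, fewer cells of a type and less RNA per cell cannot be told apart.

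Promoter letters are shown for 4 of the inhibitors, those with an unadjusted p under 0.05 in the comparison below, so that the binding motifs of the pathways above can be seen beside the expression values. The sequences are RefSeq promoter sequence of GRCm38.p6, read 5′ to 3′ on the minus strand, on which all 4 genes lie, and were trimmed to bases that no annotated exon covers. Capitals mark the matched motif: the interferon-γ-activated site (GAS, TTCNNNGAA, bound by STAT factors) in Socs3, the κB consensus of NF-κB in Tnfaip3 and Nfkbia, and the cAMP response element (CRE, TGACGTCA) in Dusp1. Coordinates here and below are in GRCm38. The stretches cover chr11:117969452-117969616 for Socs3, chr10:19015411-19015547 for Tnfaip3, chr12:55492648-55492897 for Nfkbia and chr17:26508520-26508722 for Dusp1.
Socs3: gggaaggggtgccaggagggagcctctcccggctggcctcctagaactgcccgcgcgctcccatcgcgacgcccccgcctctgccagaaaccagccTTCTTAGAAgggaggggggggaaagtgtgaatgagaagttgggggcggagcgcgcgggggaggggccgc
Tnfaip3: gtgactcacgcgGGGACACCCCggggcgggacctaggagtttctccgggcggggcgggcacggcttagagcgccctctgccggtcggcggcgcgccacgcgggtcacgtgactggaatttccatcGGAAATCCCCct
Nfkbia: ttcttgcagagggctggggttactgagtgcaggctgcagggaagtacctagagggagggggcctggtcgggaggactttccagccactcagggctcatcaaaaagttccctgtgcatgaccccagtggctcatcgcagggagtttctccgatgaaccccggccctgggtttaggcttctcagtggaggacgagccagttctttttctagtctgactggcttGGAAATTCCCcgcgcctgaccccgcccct
Dusp1: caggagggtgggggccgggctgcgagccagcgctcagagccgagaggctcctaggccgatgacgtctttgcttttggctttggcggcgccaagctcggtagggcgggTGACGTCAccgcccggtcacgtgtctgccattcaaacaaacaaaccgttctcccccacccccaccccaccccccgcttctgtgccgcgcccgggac

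The last base of the GAS of Socs3 lay 146 bases before the RefSeq transcription start. The κB matches of Tnfaip3 ended 116 and 3 bases before the more upstream of its RefSeq starts, that of Nfkbia 20 bases before its start, and the CRE of Dusp1 136 bases before its start. The Socs3 and Tnfaip3 stretches lie within the span of the gene in the deposited annotation, which also holds transcripts that start further upstream, and those of Nfkbia and Dusp1 lie just outside it. Among 32851 RefSeq promoters, searched on both strands over the 250 bases before the start, 7.02% held a GAS, 3.9% the κB consensus and 1.55% the CRE. The window of the other RefSeq start of Tnfaip3 (chr10:19011964-19012213) held none of the motifs. Of the other inhibitors, Zfp36 held a GAS, whereas the windows of Socs1, Cish and Irak3 held none of these letters. A match is a stretch of letters and was not tested as a binding site.

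**Figure D1:**
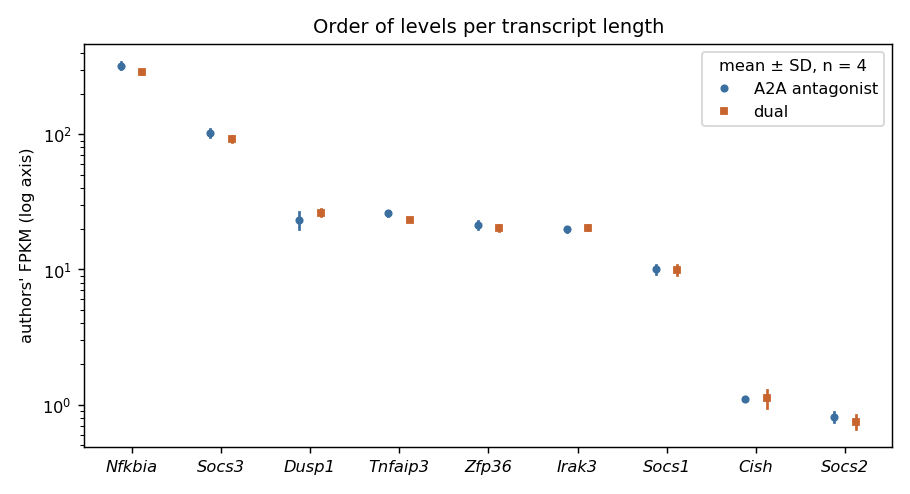
Level of each inhibitor per gene length, as the authors' FPKM on a log axis. Points are group means (circles, A2A antagonist; squares, dual) and bars the SD over 4 libraries. Nfkbia stands highest, Dusp1, Tnfaip3, Zfp36 and Irak3 lie close together, and Cish and Socs2 are lowest.

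The inhibitors differed widely in level. Nfkbia, which encodes IκBα, the protein that holds NF-κB in the cytoplasm, had 305 FPKM on average over the 8 libraries (274.9 to 343). Socs3, whose product binds the IL-6 receptor subunit gp130, followed with 97.5 FPKM (86.5 to 109). Dusp1 (24.8 FPKM), Tnfaip3 (24.6 FPKM), Zfp36 (20.8 FPKM) and Irak3 (20.1 FPKM) came next, and neighbours among these overlapped in range. Socs1, the main inhibitor of interferon-γ signalling, had 9.99 FPKM (8.98 to 11.05). Cish (1.10 FPKM, 0.949 to 1.34) and Socs2 (0.781 FPKM, 0.625 to 0.893), both known as targets of STAT5, had the lowest levels. In 5 of the 8 pairs of neighbours in this order the 8 libraries of one gene did not overlap those of the next, the exceptions being Dusp1 with Tnfaip3, Tnfaip3 with Zfp36, and Zfp36 with Irak3. Socs2 rests on 229 to 358 counts per library and Nfkbia on 15530 to 24505. The order depends on the gene length, which for Socs2 (9531 bases) and Cish (6419 bases) covers all annotated exons. In CPM the libraries of these genes overlapped. Means in the A2A antagonist and dual groups were 7.81 and 7.19 CPM for Socs2 and 7.05 and 7.20 CPM for Cish.

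No inhibitor passed the test between the groups (0 of 9 at an adjusted p under 0.05 in edgeR's quasi-likelihood test), where 0.208% of all genes did (39 of 18756, 9 higher and 30 lower in the dual group). At an unadjusted p under 0.05 there were 4 of 9, namely Tnfaip3, Nfkbia and Socs3 with lower means in the dual group and Dusp1 with a higher one. The background of that rule was 12.8%, made up of 6.81% lower and 5.98% higher. Libraries of the groups did not overlap in 2 of 9, Tnfaip3 and Nfkbia, both lower in the dual group, against 7.42% of all genes (4.06% lower). The median log2 fold change (dual minus A2A antagonist) was -0.075 over the 9 inhibitors and 0.0038 over all genes tested.

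**Figure D2:**
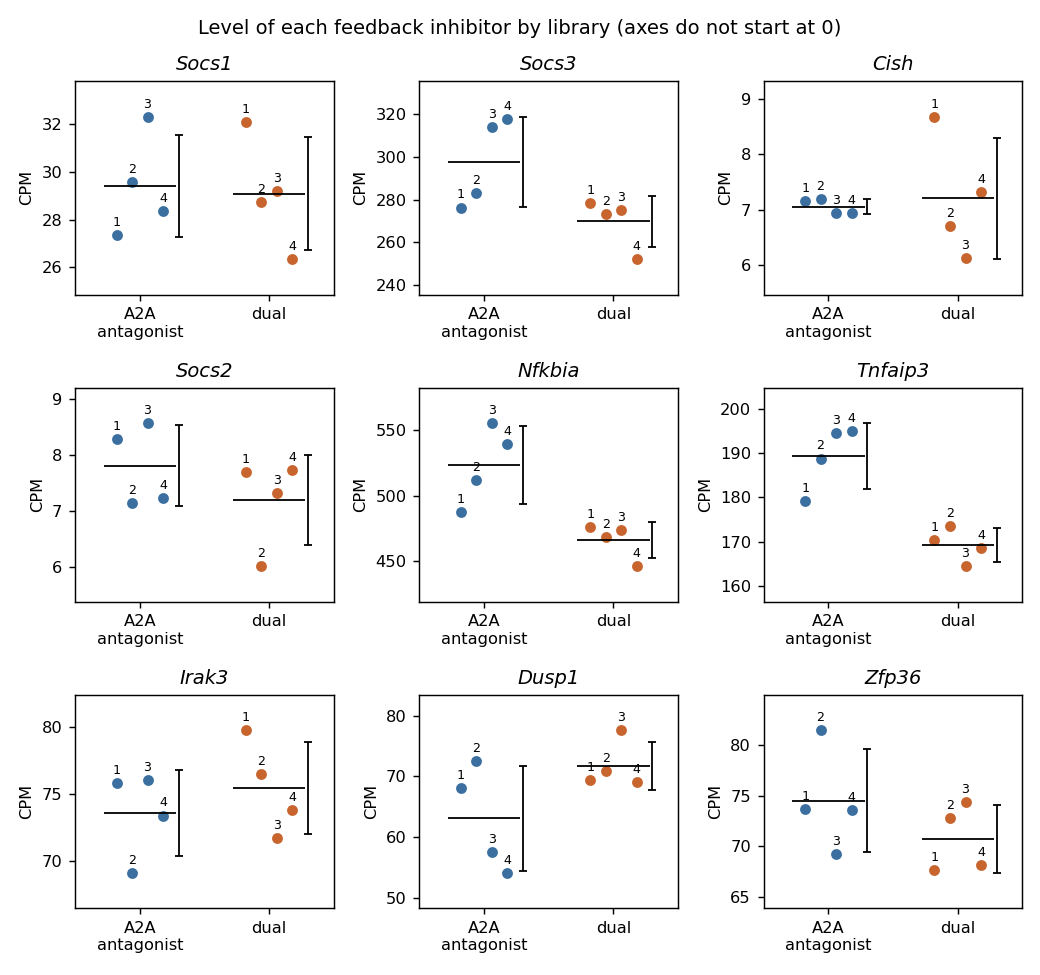
CPM (counts per 1e6 counts, scaled with TMM factors) of each inhibitor in every library, numbered by replicate; lines are group means and bars at the side the SD of 4 libraries. Axes do not start at 0. The dual libraries of Tnfaip3 and Nfkbia lie below every A2A antagonist library, and those of the other 7 overlap.

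Tnfaip3 and Nfkbia, the NF-κB-induced inhibitors, showed the clearest separation. Tnfaip3 (chr10:19000910-19015657) encodes A20, a ubiquitin-editing enzyme that stops signalling from Toll-like and TNF receptors. Its levels were 179, 189, 195 and 195 CPM in A2A antagonist replicates 1 to 4, and 170.2, 174, 164 and 169 CPM in dual replicates 1 to 4. Every dual library lay below every A2A antagonist library, with means of 189 ± 7.38 and 169 ± 3.78 CPM (SD, n = 4 each). The log2 fold change was -0.16 (SE 0.035, 95% interval -0.24 to -0.09), a mean that was 0.893 times that of the A2A antagonist group, with an adjusted p of 0.0606 in edgeR.

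Nfkbia (chr12:55489410-55492647) gave 488, 512, 555 and 539 CPM in A2A antagonist replicates 1 to 4. In dual replicates 1 to 4 it gave 476, 469, 474 and 446 CPM. Again the highest dual library was below the lowest A2A antagonist library, which was replicate 1 in both genes. The group means were 523 ± 29.9 and 466 ± 13.6 CPM (SD, n = 4), which is a log2 fold change of -0.17 (SE 0.039, 95% interval -0.25 to -0.09) with an adjusted p of 0.0686 in edgeR.

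These 2 genes were called under some settings and not under others. DESeq2 gave adjusted p-values of 0.00157 for Tnfaip3 and 0.00508 for Nfkbia, under a rule that called 3.87% of the genes with an adjusted p. Without a low-count filter edgeR gave 0.00586 and 0.0022 (background 1.17%), and Socs3 then had 0.0286. Without A2A antagonist replicate 1 both had an adjusted p of 0.0177 (background 0.902%). Leaving out any other library gave neither gene an adjusted p under 0.05. Without A2A antagonist replicate 4 edgeR gave 0.195 for Tnfaip3 and 0.235 for Nfkbia, and with the replicate block 0.142 and 0.148. Sums of CPM over the 10 microglial markers were 1242 to 1339 in the A2A antagonist group and 1175 to 1248 in the dual group. Only dual replicate 4 lay inside the range of the other group. C1qa, the most abundant of the 10 (mean 439.6 CPM), was the only one called, as lower in the dual group. The median log2 fold change of the 10 was -0.021. The sum over 7 oligodendrocyte-lineage markers was 499.8 to 536 against 461 to 492 CPM. The part of these marker levels in the levels of Tnfaip3 and Nfkbia was not tested. Astrocyte markers summed to 5946 to 6211 and 5993 to 6457 CPM, fibroblast markers to 2379 to 2652 and 2369 to 2986 CPM, and T-cell markers to at most 0.311 CPM, with none of 4 passing the filter. Endothelial (at most 59.0 CPM), mural (at most 181 CPM) and neuronal (at most 115 CPM) marker sums overlapped between the groups.

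Among the STAT-induced inhibitors, Socs3 (chr11:117966079-117970047) came nearest to a difference. It had 276, 283, 314 and 318 CPM in A2A antagonist replicates 1 to 4. The dual replicates gave 278, 273, 275 and 252 CPM. A2A antagonist replicates 2, 3 and 4 stood above all dual libraries, and only replicate 1 of that group lay within the dual range. Dual replicate 4 stood below all others. Mean levels were 298 ± 21.02 and 269.8 ± 11.9 CPM (SD, n = 4). On the log2 scale the difference was -0.14 (SE 0.045, 95% interval -0.24 to -0.05), with an adjusted p of 0.174 in edgeR.

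Socs1 (chr16:10782240-10785536) encodes the inhibitor that acts directly on JAKs below the interferon-γ receptor. Its values were 27.3, 29.6, 32.3 and 28.4 CPM in the A2A antagonist group and 32.1, 28.7, 29.2 and 26.3 CPM in the dual group. The groups spanned nearly the same range. The log2 fold change of -0.02 (SE 0.061) had a 95% interval of -0.15 to 0.11, and its sign turned when A2A antagonist replicate 3 (0.03) or dual replicate 4 (0.03) was left out.

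Cish (chr9:107296026-107302784) and Socs2 (chr10:95385362-95417180) restrain receptors that use STAT5, such as the growth hormone receptor. Cish had 7.15, 7.19, 6.94 and 6.93 CPM in A2A antagonist replicates 1 to 4, and 8.67, 6.70, 6.12 and 7.31 CPM in the dual replicates. Its dual libraries spread on both sides of the narrow A2A antagonist range. The log2 fold change was 0.02 (SE 0.098, 95% interval -0.18 to 0.23) and became -0.07 without dual replicate 1, the highest library. Antisense genes overlap 740 exonic bases of Cish, and other transcripts hold 10.4% of its 31-base words, so its counts are uncertain. Among the other inhibitors that share was highest for Zfp36 (6.57%), Socs2 (6.55%) and Irak3 (3.60%).

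Socs2 gave 8.30, 7.15, 8.57 and 7.24 CPM in the A2A antagonist group. The dual libraries gave 7.69, 6.02, 7.32 and 7.74 CPM. Only dual replicate 2 lay outside the A2A antagonist range, and the log2 fold change was -0.12 (SE 0.096, 95% interval -0.32 to 0.08). For Cish and Socs2 the counting error alone was up to 6.26% and 6.61% of a library's value, which limits what could be seen.

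Irak3 (chr10:120141648-120202130) encodes IRAK-M, a kinase-like protein of macrophages that blocks the IRAK complex below Toll-like receptors. It had 75.8, 69.1, 76.0 and 73.4 CPM in the A2A antagonist group and 79.7, 76.5, 71.7 and 73.8 CPM in the dual group. The ranges overlapped, and the log2 fold change of 0.04 (SE 0.043) had a 95% interval of -0.05 to 0.13. Irak3 shares 220 exonic bases with genes of the opposite strand.

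Dusp1 (chr17:26505590-26508519) was the inhibitor with an unadjusted p under 0.05 and a higher mean in the dual group. Its product dephosphorylates p38 and JNK, and its gene is a known target of cAMP and glucocorticoid signalling. A2A antagonist replicates 1 to 4 had 68.1, 72.6, 57.5 and 54.1 CPM, and dual replicates 1 to 4 had 69.4, 70.9, 77.6 and 69.0 CPM. Replicates 3 and 4 of the A2A antagonist group stood below the other 6 libraries. Replicate 1 lay just below the lowest dual library, and replicate 2 lay within the dual range. Means were 63.1 ± 8.70 and 71.7 ± 4.00 CPM (SD, n = 4), which is a log2 fold change of 0.19 (SE 0.071, 95% interval 0.04 to 0.34) with an adjusted p of 0.265 in edgeR. Genes that overlap Dusp1 share 11 exonic bases with it.

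The same A2A antagonist replicates 3 and 4 held the highest levels of Tnfaip3, Nfkbia and Socs3 and the lowest of Dusp1. The spread within that group therefore ran in opposite directions for these genes. Its coefficient of variation was 13.8% for Dusp1, 7.06% for Socs3, 5.72% for Nfkbia and 3.90% for Tnfaip3, against 5.57%, 4.42%, 2.91% and 2.23% in the dual group.

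Zfp36 (chr7:28376784-28380253) encodes tristetraprolin, which binds AU-rich stretches of cytokine mRNAs such as Tnf and speeds their decay. The A2A antagonist libraries had 73.7, 81.5, 69.3 and 73.6 CPM and the dual libraries 67.7, 72.8, 74.4 and 68.1 CPM. The groups overlapped. Only A2A antagonist replicate 2 stood above all dual libraries, and dual replicates 1 and 4 stood below all A2A antagonist libraries. The log2 fold change was -0.07 (SE 0.048, 95% interval -0.18 to 0.03). An antisense gene shares 125 of its exonic bases.

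**Figure D3:**
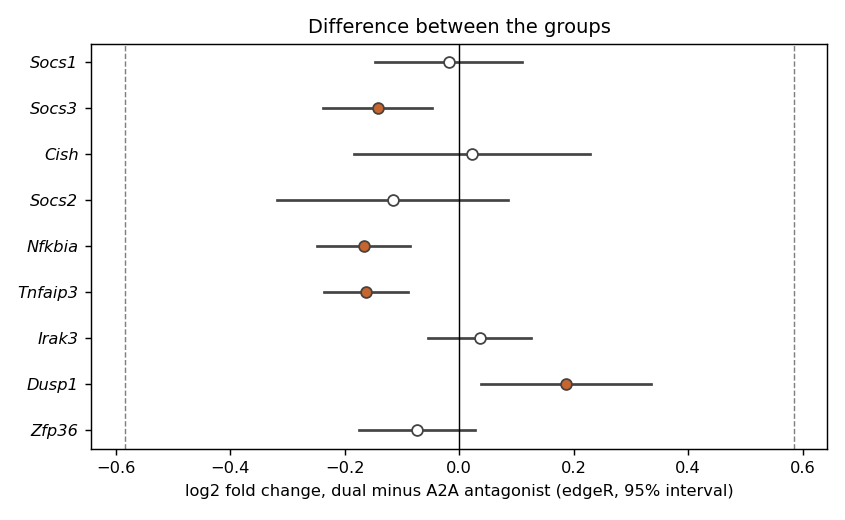
Log2 fold change of each inhibitor (dual minus A2A antagonist) with its 95% interval from edgeR; filled points have an unadjusted p under 0.05, and dashed lines mark a 1.5-fold difference either way. Every interval lies inside the dashed lines, from -0.32 for Socs2 to 0.34 for Dusp1.

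The 95% intervals of all 9 inhibitors excluded a 1.5-fold difference between these libraries. They rest on the spread between libraries, which may be technical, and may not cover variation between animals or cultures. The lowest bound over the 9 was 0.802-fold, for Socs2, and the highest 1.26-fold, for Dusp1. The interval of Irak3 was the narrowest to include no difference, from 0.963-fold to 1.09-fold.

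**Figure D4:**
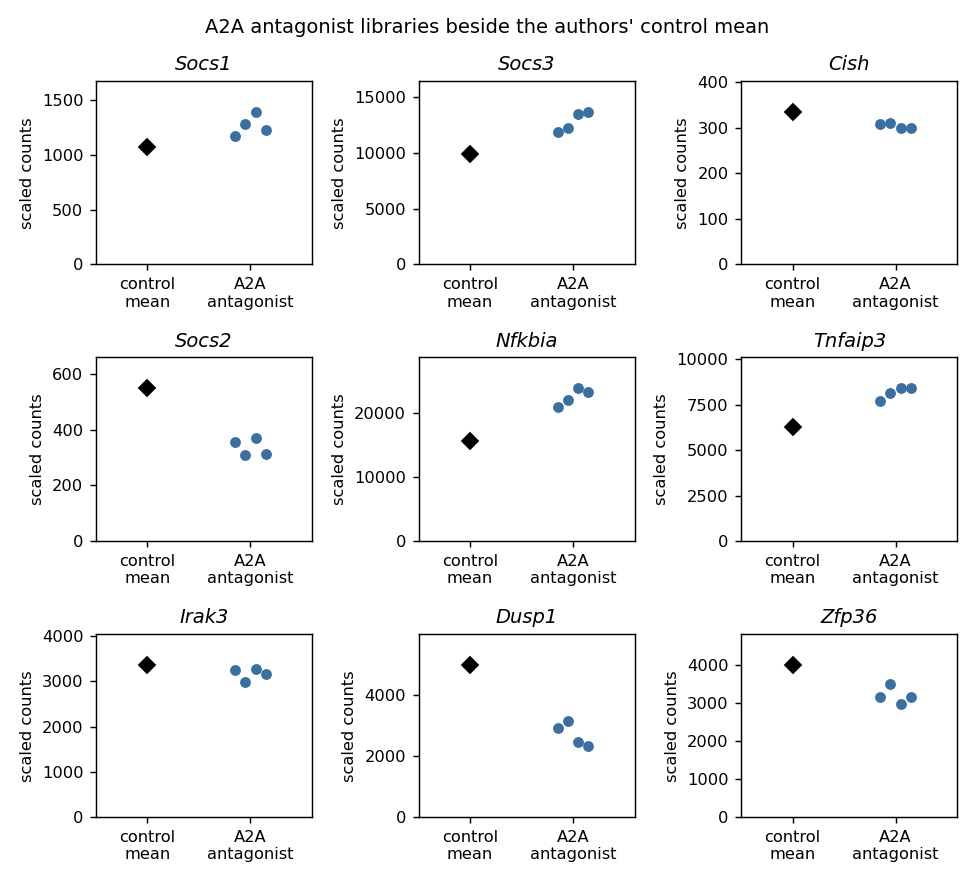
Counts scaled with the authors' size factors in the 4 A2A antagonist libraries (circles) and the authors' mean of the control (diamond), which has no SD here; axes start at 0. The control mean lies below all circles for Socs1, Socs3, Nfkbia and Tnfaip3 and above them for the other 5.

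The study also compared the A2A antagonist with activated cells given vehicle, of which the authors' mean is the only value used here. The control libraries behind that mean match no sample of this series and were not used here, so it is printed without an SD and no test was made. It lay outside the 4 A2A antagonist libraries for 9 of 9 inhibitors, and for 65.9% of all genes (31.4% with the control higher and 34.5% with the control lower). The control mean was the lower for Nfkbia (15710 scaled counts, against 20919 to 23939 in the A2A antagonist libraries), Tnfaip3 (6298, against 7689 to 8415) and Socs3 (9900.4, against 11858 to 13711). Socs1 followed them with 1073 scaled counts in the control mean and 1174 to 1394 in the libraries. These are the genes of IκBα, A20 and the SOCS proteins that act on gp130 and the interferon-γ receptor.

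The control mean was the higher for the remaining 5. Dusp1 had 4999 scaled counts in the control mean and 2335 to 3140 in the A2A antagonist libraries, the widest gap of all 9 relative to its level. Socs2 had 549 against 309 to 369, and Zfp36 had 4023 against 2987 to 3524. Cish (335 against 299 to 311) and Irak3 (3366 against 2990.1 to 3277) lay just above their highest library. The A2A antagonist libraries enter both comparisons, so the values of one are not independent of the other.

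The pathways around the inhibitors were read from 8 lists of 159 genes, 155 of them tested. Of these, 1 passed the test, Ccl3, and 39 had an unadjusted p under 0.05 (15 higher and 24 lower in the dual group). Over all genes tested these shares were 0.208% and 12.8% (6.81% lower and 5.98% higher), against which the counts below are to be read.

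**Figure D5:**
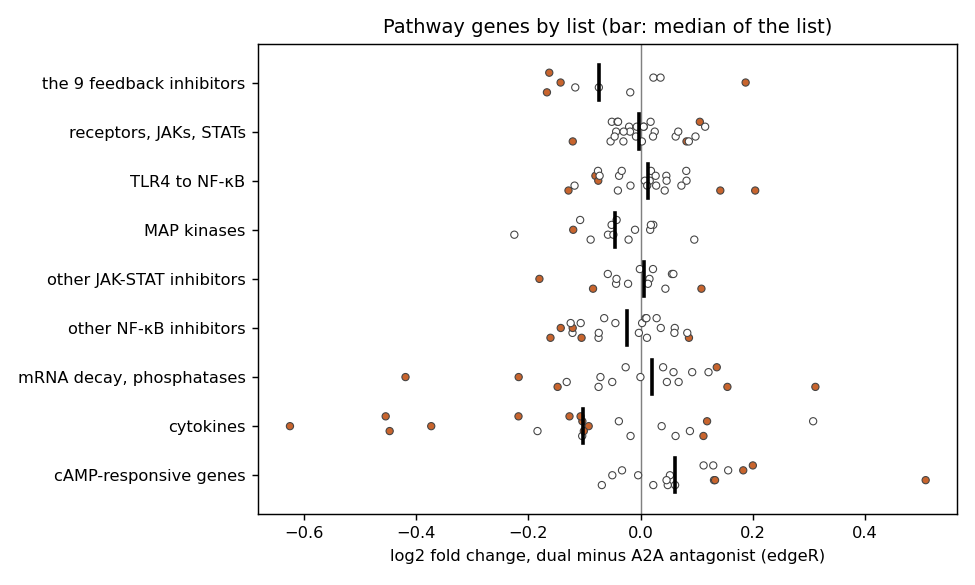
Log2 fold change (dual minus A2A antagonist, edgeR) of every tested gene in the 9 inhibitors and the 8 pathway lists. Filled points have an unadjusted p under 0.05 and bars mark list medians, which run from -0.10 for the cytokines to 0.06 for the cAMP- and glucocorticoid-responsive genes.

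Cytokines that induce the inhibitors or whose mRNAs they control had the lowest median log2 fold change, -0.10 over 20 tested genes, with 2 higher and 10 lower at an unadjusted p under 0.05. Beside them stand the lower C1qa and the microglial marker sums given above. Those sums were 1242 to 1339 CPM in the A2A antagonist group and 1175 to 1248 CPM in the dual group. The median log2 fold change of the 10 markers was -0.021, and the part of these markers in the cytokine levels was not tested. Ccl3, a macrophage chemokine whose mRNA is a target of tristetraprolin, had 164, 188, 190.2 and 213 CPM in the A2A antagonist replicates and 129, 156, 146 and 153 CPM in the dual replicates. It fell from 189 ± 19.8 to 145.9 ± 12.01 CPM (SD, n = 4), a log2 fold change of -0.37 (SE 0.063, 95% interval -0.51 to -0.24) with an adjusted p of 0.024 in edgeR. That call was lost without A2A antagonist replicate 2 (adjusted p 0.0608), 3 (0.0791) or 4 (0.0932) or without dual replicate 3 (0.065). Il12b, the p40 chain of IL-12, had 4.23 ± 0.554 and 2.72 ± 0.665 CPM with no overlap between groups (log2 fold change -0.62, adjusted p 0.0907). Ccl2, the most abundant of the list, had 1359 ± 22.1 and 1267 ± 31.2 CPM (log2 fold change -0.10, adjusted p 0.145). Tnf, Il6 and Il10 were picked with their values known, and the log2 fold changes of Tnf and Il6 were -0.22 (SE 0.054, adjusted p 0.0912) and -0.02 (SE 0.052). Il10, the anti-inflammatory cytokine that induces Socs3, was scarce at 3.38 CPM (log2 fold change -0.45, SE 0.14, adjusted p 0.182).

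Of 26 tested cytokine receptors, JAKs and STATs, 2 were higher and 1 lower at an unadjusted p under 0.05, and the median log2 fold change was -0.0024. Il6st, which encodes gp130, the docking site of SOCS3, had 802 ± 3.43 and 849 ± 29.9 CPM (log2 fold change 0.08, adjusted p 0.27). Every dual library of Il6st lay above every A2A antagonist library.

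The TLR4 to NF-κB list had 2 higher and 3 lower of 24 (median 0.01). Myd88, the adaptor of Toll-like receptors, had 71.5 ± 1.22 and 65.4 ± 3.55 CPM (log2 fold change -0.13, adjusted p 0.186), and Tab3, a partner of the kinase TAK1, had 16.05 ± 0.81 and 18.4 ± 1.51 CPM (0.20, adjusted p 0.179). Lbp, the LPS-binding protein, was the most abundant, at 1047 ± 25.6 and 1080.3 ± 63.1 CPM (0.05, adjusted p 0.664). Of 22 further inhibitors of this pathway, 1 was higher and 4 lower (median -0.02). Nfkbib and Nfkbie, which encode the relatives IκBβ and IκBε of the Nfkbia product, had log2 fold changes of -0.16 (adjusted p 0.11) and -0.12 (adjusted p 0.145), and their groups did not overlap. Tnip1, whose product binds A20, had -0.11 (adjusted p 0.295).

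Among 14 other JAK-STAT inhibitors, 1 was higher and 2 were lower (median 0.01). Usp18, an interferon-induced inhibitor of the type I interferon receptor, had 162 ± 5.64 and 143 ± 5.38 CPM, with no overlap between groups, a log2 fold change of -0.18 and an adjusted p of 0.0532. DESeq2 (0.000912), the fit without a filter (0.00261), and the fits without A2A antagonist replicate 1 (0.0177) or dual replicate 2 (0.0392) called it. The other 9 of 13 alternatives did not, with an adjusted p of up to 0.169 in edgeR (without A2A antagonist replicate 4). Socs4 (0.11, adjusted p 0.319) and the phosphatase gene Ptpn11 (0.01, adjusted p 0.908) were not called.

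The MAP kinase list, whose members lie above Zfp36 or are opposed by Dusp1, had 0 higher and 1 lower of 14 (median -0.05). That gene was Mapkapk2, the kinase that phosphorylates tristetraprolin, with 237 ± 4.34 and 218 ± 5.93 CPM (log2 fold change -0.12, adjusted p 0.111). Mapk3, which encodes ERK1, had -0.06 (adjusted p 0.551). The list of other mRNA-decay factors and MAP kinase phosphatases had 3 higher and 3 lower of 18 (median 0.02). Dusp2, a nuclear phosphatase of immune cells, had 10.995 ± 1.93 and 8.22 ± 0.602 CPM (-0.42, adjusted p 0.0925), and Zfp36l1, a relative of Zfp36, had 194 ± 9.86 and 175 ± 7.32 CPM (-0.15, adjusted p 0.118).

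Genes that respond to cAMP or glucocorticoids, as Dusp1 does, had 4 higher and 0 lower of 17 and the highest median of the lists (0.06). Sgk1, a kinase induced by glucocorticoids, had 36.2 ± 2.56 and 41.5 ± 1.41 CPM, with no overlap between groups (log2 fold change 0.20, adjusted p 0.0925), and Thbs1 had 505 ± 31.2 and 553 ± 17.3 CPM (0.13, adjusted p 0.156). The immediate early genes Nr4a1 (0.51, SE 0.17, adjusted p 0.205) and Fos (0.18, SE 0.083, adjusted p 0.359) were the other 2, named after their values were seen. The rest of the list had an unadjusted p above 0.05 in edgeR. Among them Tsc22d3 (-0.005), Fkbp5 (-0.03), Klf9 (0.02) and Crem (0.05), also named with values seen, had log2 fold changes near 0. The authors' control mean lay above every A2A antagonist library for 14 of these 17 genes and below for 1, the side on which it also lay for Dusp1. For the cytokines it was above in 5 and below in 8 of 20. Over all genes tested it lay above for 31.4% and below for 34.5%.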

How the data were processed

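RNA of primary microglial cultures was sequenced as 8 libraries. The authors aligned read pairs with HISAT2, as their methods state, and counted reads per gene with featureCounts (1.5.0-p3 in the submitters' processing notes, build mm10). Whether strand was used is not given in the sources used here, so genes that overlap others are uncertain. The deposited counts are raw and not pooled. The authors also deposited FPKM values, relative to gene length and depth, and a signal of counts divided by size factors, with a mean per group. The tables also hold the authors' own comparisons (log2 fold change with raw and adjusted p-value), which were not used, nor were 9 columns of the 3 control libraries, which match no sample of this series.

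The test was run in edgeR 4.0.16 under R 4.3.3 (filterByExpr with a minimum count of 10, TMM, quasi-likelihood F test, no covariates), two-sided, with Benjamini-Hochberg adjustment over all 18756 genes. The threshold was 0.05. Standard errors came from the F statistics. CPM was scaled with TMM factors (0.992 to 1.01), and 1 CPM is 1 count in 1e6. Variation between libraries beyond counting error, the square root of edgeR's common dispersion, was 5.28% and may be technical. Alternatives were DESeq2 1.42.0, its size factors, no filter, a mean CPM of at least 1, a replicate block, a 1.5-fold rule, CPM per length in place of FPKM, and leaving out each library. The scripts were tested on simulated counts. Libraries of equal replicate number showed no strong shared deviation (correlations of -0.053 to 0.041, below 0.1), and the main test used no pairing. The labels do not say whether equal numbers shared a culture, and these correlations cannot settle it.

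The 9 genes and the lists were chosen with earlier results of these data known. From each list the called genes (at most 4), or else the 2 with the smallest p, and the most abundant gene are named; genes named outside this rule are marked as such. A result that this rule would name is not reported here. Promoters and their coordinates are from RefSeq (GRCm38.p6), which had no entry for Socs2 here; gene coordinates are those of the deposited tables, which were the same in GENCODE M21 except for Dusp1.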

Additional observations from a re-analysis of the deposited data

How the results depend on the processing

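The 29 fold changes of inhibitors and named genes gave 373 values under the alternatives, of which 342 kept their direction and their side of the threshold. The sign turned in 4: Socs1 without A2A antagonist replicate 3 (0.029) or dual replicate 4 (0.026), and without dual replicate 1 Cish (-0.073) and Ptpn11 (-0.0021). With 1 library left out, Socs1 ranged from -0.067 to 0.029, Cish from -0.073 to 0.093 and Ptpn11 from -0.0021 to 0.023.

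The number of genes called was 39 in edgeR, 374 with DESeq2, 366 without a low-count filter, 1 with the 1.5-fold rule, and from 0 to 172 when 1 library was left out. It was 172 without A2A antagonist replicate 1, 5 without replicate 2, 6 without replicate 3 and 0 without replicate 4, and 0 without dual replicate 3. Inhibitors called were 0, but 2 with DESeq2, 3 without the filter and 0 to 2 when 1 library was left out. Pathway genes called were 1, but 9 with DESeq2, 9 without the filter and 0 to 3 when 1 library was left out. With the replicate block 17 genes, 0 inhibitors and 1 pathway gene were called. The cause of these differences was not tested. DESeq2 gave no adjusted p for Cish and Socs2. Leaving out 1 library could not lower the count of 9 control means outside the libraries. A mean outside the full range also lies outside the range of fewer libraries. With CPM per length, 5 pairs of neighbours were again apart in level. That measure uses the same gene lengths as the FPKM, so it is no separate check.

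Among the 9 inhibitors, counting error was largest for Socs2 and Cish.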
